A study of Mus musculus with 7 samples.

Results

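Uba1, Ube2a, Huwe1, Cul4b, Usp9x and Usp11 are X-linked genes of the ubiquitin system, chosen by name, and were examined in the count files and, where present, in the allelic ratio tables. They are 6 of the 908 X-linked genes and 22556 genes counted. The ratio table of iXist-ChrX-Dom held 4 of them (Uba1, Usp11, Usp9x and Cul4b), and that of iXist-ChrX-Cast held these and Huwe1. ChrRNA-seq, the sequencing of RNA bound to chromatin, was done on female mouse embryonic stem cells (mESCs), F1 hybrids of Dom/129S and Cast, after 10 days with 1 µg/mL doxycycline and without differentiation. In iXist-ChrX-Dom (n = 4) a TetOn promoter replaced the endogenous Xist promoter on the Dom/129S X chromosome. In iXist-ChrX-Cast (n = 3) it did so on the Cast X chromosome. Each line is described as a single clone, all samples carried an engineered Xist allele, and samples without doxycycline were not analysed here. The values therefore show levels on day 10 and not changes over time. Xi denotes the X chromosome with the inducible Xist and Xa the other.

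Ubiquitin is a small protein that is joined to other proteins in a cascade of activating enzymes, conjugating enzymes and ligases, and that deubiquitinases remove. The tag sends many proteins to the proteasome and changes the activity or location of others, histones among them. Xist RNA coats the chromosome it is made from and silences most of its genes. Genes that stay partly active on Xi once silencing is established are said to escape. The study reports less silencing in undifferentiated mESCs than in cells differentiated to neural precursors. Expression from Xi in these samples therefore does not by itself class a gene as escaping.

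The libraries held 14877384 to 24309806 counted fragments, of which 44.2% to 46.4% could be assigned to a parental genome and 4.21% to 4.76% came from X-linked genes. Of the allelic fragments of Xist, iXist-ChrX-Dom drew 99.9% from Xi and iXist-ChrX-Cast 94.0% to 94.7%. All 7 pluripotency markers were detected in both lines (summed level 1081 to 1409 CPM, the count normalized by edgeR to a common library size, in iXist-ChrX-Dom and 1204 to 1376 in iXist-ChrX-Cast). The 5 markers of feeder fibroblasts summed to 21.3 to 34.6 and 24.2 to 31.9 CPM, the 5 of neural precursors to 86.8 to 124 and 73.5 to 96.2 CPM with Sox1 at 0 in every sample, and the 3 of primitive endoderm to 5.00 to 11.1 and 9.07 to 12.8 CPM. The 7 pluripotency and 5 feeder markers were tested between the lines, with 4 of the 5 neural and 2 of the 3 primitive endoderm markers. Of the markers tested only Tbx3, a pluripotency factor, was called, where 2.92% of all 15186 genes tested were called. For replicates 3 and 4 of iXist-ChrX-Dom a d1 time point stands in the description field, against 10 days in titles and treatment fields, so values within replicates 1 and 2 are given beside results that move with them. Per the labels the 3 samples of iXist-ChrX-Cast are of 1 clone, but the count files of replicates 1 and 2 carry another clone name than that of replicate 3, and whether the cells differ was not tested. Replicate 3 also stood apart in its counts, with a chi-square per gene of 39.7 and 36.1 against replicates 1 and 2, which had 9.71 between them. A like divide was seen in iXist-ChrX-Dom, where replicates 1 and 2 had 23.6 to 39.9 against replicates 3 and 4. Within these sets of iXist-ChrX-Dom the values were 14.8 (replicates 1 and 2) and 6.51 (replicates 3 and 4).

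Uba1, the main ubiquitin-activating enzyme, lies at X 20658302 to 20683179 on mm10, and the deubiquitinase gene Usp11 starts 20.7 kb past its end, at X 20703909 to 20720539, on the same strand. Usp9x, another deubiquitinase gene, lies nearer the centromere (X 13071498 to 13173327). Ube2a, which encodes a conjugating enzyme of the Rad6 family, spans X 36874366 to 36884220. Cul4b, the scaffold of a cullin-RING ligase, lies on the minus strand at X 38531621 to 38576196. These 5 genes lie centromeric of Xist, at 64.9 to 90.3 Mb from it. Huwe1, a large HECT-domain ligase, lies telomeric of Xist at 48.3 Mb (X 151803282 to 151935417). Counting covered introns as well as exons, and exons made up 8.35% (Cul4b) to 20.8% (Usp11) of the counted spans. No other counted gene overlapped any of the 6 on the same strand.

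The start-site windows of 5 of the 6 genes were found in RefSeq (GRCm38.p6), and 5 of their 7 windows are shown because Uba1 and Huwe1 had the highest allelic ratios of these genes, and Usp11 and Cul4b the lowest. Each window runs from 250 bases before to 50 bases after a start site, 5′ to 3′ on the gene's strand, with matches to the searched motifs in capitals. Usp9x is named only.
Uba1, first start, chrX:20658052-20658351, plus strand: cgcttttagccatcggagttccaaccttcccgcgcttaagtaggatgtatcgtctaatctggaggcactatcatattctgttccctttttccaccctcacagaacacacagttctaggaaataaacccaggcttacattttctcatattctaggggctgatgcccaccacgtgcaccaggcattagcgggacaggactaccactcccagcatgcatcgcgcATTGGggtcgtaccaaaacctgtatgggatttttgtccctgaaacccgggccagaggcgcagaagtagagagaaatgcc
Uba1, internal start, chrX:20662646-20662945, plus strand: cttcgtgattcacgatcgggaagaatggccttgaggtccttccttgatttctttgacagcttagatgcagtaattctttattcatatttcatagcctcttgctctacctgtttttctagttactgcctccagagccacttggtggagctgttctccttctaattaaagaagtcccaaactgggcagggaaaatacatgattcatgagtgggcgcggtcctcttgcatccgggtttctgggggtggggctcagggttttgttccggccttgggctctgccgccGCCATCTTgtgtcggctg
Usp11, chrX:20703659-20703958, plus strand: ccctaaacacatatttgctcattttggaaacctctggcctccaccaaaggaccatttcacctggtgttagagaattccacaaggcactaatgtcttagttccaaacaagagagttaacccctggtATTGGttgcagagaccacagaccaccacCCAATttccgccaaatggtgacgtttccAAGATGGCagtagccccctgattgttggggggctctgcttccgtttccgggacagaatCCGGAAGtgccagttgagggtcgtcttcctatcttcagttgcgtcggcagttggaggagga
Cul4b, chrX:38576147-38576446, minus strand: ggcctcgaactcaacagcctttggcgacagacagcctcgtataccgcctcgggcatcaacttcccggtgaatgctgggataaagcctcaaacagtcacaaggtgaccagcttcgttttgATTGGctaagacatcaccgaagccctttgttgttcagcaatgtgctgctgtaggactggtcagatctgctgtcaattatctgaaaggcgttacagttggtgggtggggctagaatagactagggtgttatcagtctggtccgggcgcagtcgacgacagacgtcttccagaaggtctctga
Huwe1, chrX:151803032-151803331, plus strand: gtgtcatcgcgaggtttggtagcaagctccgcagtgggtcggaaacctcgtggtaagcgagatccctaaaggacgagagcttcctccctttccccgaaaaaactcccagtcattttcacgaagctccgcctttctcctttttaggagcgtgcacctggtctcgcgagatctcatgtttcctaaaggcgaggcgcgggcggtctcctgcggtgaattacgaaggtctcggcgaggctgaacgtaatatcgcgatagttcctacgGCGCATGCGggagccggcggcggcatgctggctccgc

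The letters searched on both strands were AAGATGGC for YY1, CCGGAAG for ETS factors, GCGCATGCG for NRF1 and CCAAT for the CCAAT box, 4 motifs chosen after the sequences were seen. Positions count from the start site and give the first base of the match. YY1 letters stood at position -69 in Usp11 and at position 33 in the internal start of Uba1, and are held by 2.75% of all 32851 windows. Usp11 also held ETS letters at position -11 (8.86% of windows) and the CCAAT box at positions -125 and -97 (37.4% of windows). NRF1 letters occurred in Huwe1 at position 14 (1.75% of windows). The first start of Uba1 and Cul4b held the CCAAT box only, and Ube2a none of the 4 motifs. CpG dinucleotides numbered 31 in Huwe1, 20 in Ube2a, 14 in Cul4b, 12, 19 and 10 in the 3 windows of Uba1, and 8 in Usp11, beside a median of 7 over all windows.

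The level of each gene was examined first, per length, since the counted spans ran from 9.86 kb (Ube2a) to 132 kb (Huwe1). The order of the mean levels was Huwe1, Usp9x, Cul4b, Uba1, Ube2a and Usp11 in both lines. In CPM per kb, Huwe1 stood at 14.7 ± 0.932 (SD, n = 4) in iXist-ChrX-Dom and 16.6 ± 1.99 (n = 3) in iXist-ChrX-Cast. Usp9x had 11.3 ± 1.01 and 14.3 ± 1.74 CPM per kb, and Cul4b 9.76 ± 0.827 and 10.3 ± 0.966. These 3 genes ranked 14, 18 and 24 by this measure among the 908 X-linked genes, and Huwe1 ranked 2 by CPM, not scaled to length. Uba1 had 5.58 ± 0.796 and 6.59 ± 0.691 CPM per kb, Ube2a 3.31 ± 0.554 and 3.17 ± 0.299, and Usp11 2.74 ± 0.270 and 2.90 ± 0.499. Over the 7 samples Uba1 (4.57 to 7.24 CPM per kb) overlapped none of its neighbors in this order. Huwe1 overlapped Usp9x (13.6 to 17.9 against 10.5 to 15.6), Usp9x overlapped Cul4b, and Ube2a overlapped Usp11 (2.83 to 3.96 against 2.34 to 3.29).

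**Figure D1:**
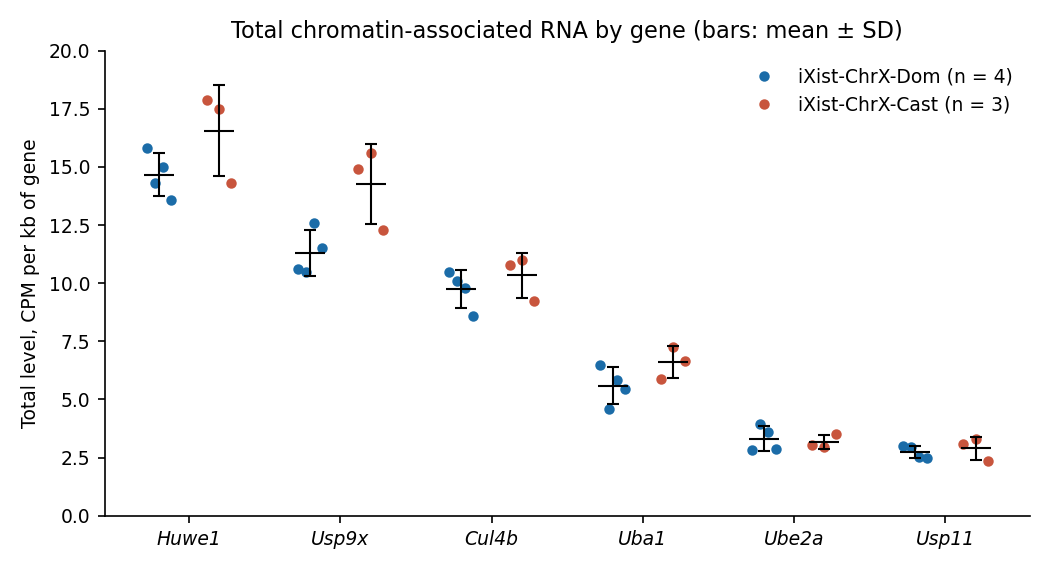
Total level of each gene (vertical axis, CPM per kb of counted gene length) in every sample of iXist-ChrX-Dom (blue) and iXist-ChrX-Cast (red), with the mean ± SD in black. Huwe1, Usp9x and Cul4b lie above Uba1, and Uba1 lies above Ube2a and Usp11, and samples of the lines overlap for every gene.

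None of the 6 genes was called between the lines in total counts (edgeR, Benjamini-Hochberg adjusted p under 0.05), where 2.92% of 15186 genes and 8.12% of 542 X-linked genes were called. DESeq2 called 0 of the 6 as well, and at an unadjusted edgeR p under 0.05 there was 1, Usp9x. The lines overlapped for all 6 genes, and did not for 16.0% of genes. The median log2 difference of the 6 genes, iXist-ChrX-Dom minus iXist-ChrX-Cast, was -0.13, beside -0.12 for all X-linked genes and -0.00 for all genes tested. In bulk samples fewer expressing cells and less RNA per cell cannot be told apart.

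Usp9x had 1076, 1068, 1288 and 1170 CPM in the 4 samples of iXist-ChrX-Dom, by replicate number. Those of iXist-ChrX-Cast had 1515, 1587 and 1251 CPM. Only the replicates numbered 3 of the lines overlapped. The log2 fold change was -0.33 (SE 0.12, edgeR adjusted p = 0.176). The call depended on these libraries: without iXist-ChrX-Cast replicate 3 the log2 fold change was -0.43 (adjusted p = 0.0379), and within replicates 1 and 2 of each line it was -0.53 (adjusted p = 0.00554). Between replicates 3 and 4 of iXist-ChrX-Dom and replicate 3 of iXist-ChrX-Cast the difference of mean log2 CPM was -0.03, with no test. With the set (replicates 1 and 2 against 3 and 4) as a covariate, the log2 fold change was -0.33 (edgeR adjusted p = 0.0502).

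Uba1 had 161, 114, 145 and 136 CPM in iXist-ChrX-Dom and 146, 180 and 166 CPM in iXist-ChrX-Cast (log2 fold change -0.24, SE 0.13, edgeR adjusted p = 0.376). Huwe1 had 2082, 1889, 1982 and 1795 CPM against 2368, 2316 and 1888 CPM (-0.18, SE 0.12, adjusted p = 0.482). For both genes the means were lower in iXist-ChrX-Dom by less than the test could separate from the replicate spread. Cul4b had 468, 452, 437 and 383 CPM against 479, 490 and 411 CPM (-0.08, SE 0.11, adjusted p = 0.771). Usp11 had 49.7, 49.1, 42.0 and 41.3 CPM against 51.2, 54.7 and 38.9 CPM (-0.08, SE 0.14, adjusted p = 0.821), and this difference was 0.01 without iXist-ChrX-Cast replicate 2. Ube2a had 27.8, 39.1, 35.3 and 28.4 CPM against 29.8, 29.3 and 34.6 CPM (0.06, SE 0.15, adjusted p = 0.880). iXist-ChrX-Dom replicate 2 was the highest for Ube2a, and without it the difference was -0.03, while within replicates 1 and 2 it was 0.18 (edgeR adjusted p = 0.507).

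Expression from Xi was examined next, as the allelic ratio, the fraction of allelic fragments that came from Xi. The ratio is 0 for a silent Xi copy and would be near 0.5 where both copies are equally expressed. Of the 4 genes in both tables Uba1 drew the largest mean share of its allelic fragments from Xi in each line, and Usp9x the next largest, and Xi fragments of all 4 were found in every sample. edgeR called Xi below Xa for all 4 genes of the iXist-ChrX-Dom table and all 5 of the iXist-ChrX-Cast table. The call was shared by 97.8% of 232 and 97.6% of 380 table genes tested in the lines, and by 22.6% and 37.6% of all genes tested, autosomal ones included, so these counts are near the background of the X chromosome.

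**Figure D2:**
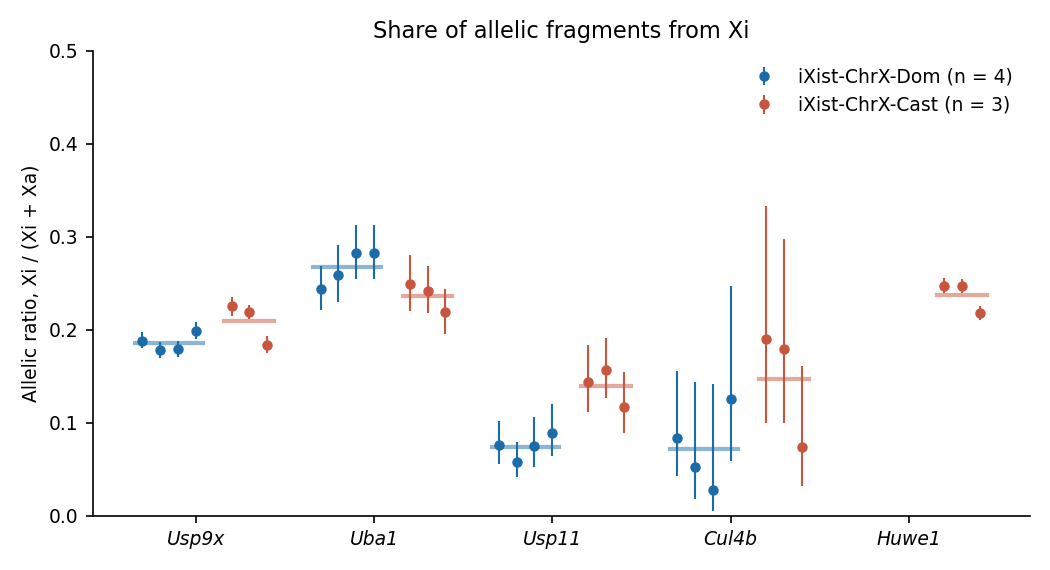
Allelic ratio, Xi / (Xi + Xa), of each gene held by a ratio table, by sample, in iXist-ChrX-Dom (blue, n = 4) and iXist-ChrX-Cast (red, n = 3), with Wilson 95% intervals of the counts and the mean of each line as a horizontal bar. Uba1, Usp9x and Huwe1 lie between 0.178 and 0.283, Usp11 between 0.0577 and 0.157, and the intervals of Cul4b are wide because few of its fragments are allelic.

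Uba1 had allelic ratios of 0.244, 0.259, 0.283 and 0.283 in iXist-ChrX-Dom, from 783 to 1205 allelic fragments. In iXist-ChrX-Cast they were 0.249, 0.242 and 0.219, from 788 to 1147. The lines overlapped, and the log-odds of the ratio differed by 0.23 (iXist-ChrX-Dom minus iXist-ChrX-Cast, log2 scale, SE 0.16, limma adjusted p = 0.292). Within replicates 1 and 2 this difference was 0.04 (limma adjusted p = 0.843), and the mean ratio differed by 0.00607 there and by 0.0646 between replicates 3 and 4 of iXist-ChrX-Dom and replicate 3 of iXist-ChrX-Cast. After correction for the share of autosomal fragments assigned to Cast (47.3% to 48.1%) the difference was -0.05. Within iXist-ChrX-Dom the Xi level was below the Xa level by a log2 difference of -1.46 (SE 0.06, edgeR adjusted p = 3.22e-15, lower in 4 of 4 samples). In iXist-ChrX-Cast this difference was -1.70 (SE 0.07, edgeR adjusted p = 3.45e-11, lower in 3 of 3). Uba1 ranked 38 of 246 genes by mean ratio in iXist-ChrX-Dom and 67 of 399 in iXist-ChrX-Cast, above 84.6% and 83.2% of genes.

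Usp9x is a large deubiquitinase with many substrates. Its allelic ratios were 0.188, 0.178, 0.179 and 0.199 in iXist-ChrX-Dom and 0.225, 0.219 and 0.184 in iXist-ChrX-Cast, from 6749 to 9805 allelic fragments per sample. The 95% interval of iXist-ChrX-Cast replicate 3 (0.175 to 0.193) lay below those of the other two. The lines overlapped through that replicate, and their log-odds differed by -0.20 (SE 0.16, limma adjusted p = 0.368), and by -0.33 within replicates 1 and 2 (limma adjusted p = 0.209). With the correction for the autosomal share assigned to Cast the difference was -0.47 (limma adjusted p = 0.0593). Xi was below Xa by log2 differences of -2.13 in iXist-ChrX-Dom (SE 0.04, edgeR adjusted p = 1.27e-22) and -1.92 in iXist-ChrX-Cast (SE 0.06, edgeR adjusted p = 1.22e-12). Its mean ratios of 0.186 ± 0.00957 and 0.209 ± 0.0221 exceeded those of 63.8% and 77.4% of table genes, whose medians were 0.148 and 0.122. Genes that start before 25 Mb had medians of 0.186 and 0.189.

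Usp11, a deubiquitinase of the same family, had ratios of 0.0760, 0.0577, 0.0749 and 0.0887 in iXist-ChrX-Dom and 0.144, 0.157 and 0.117 in iXist-ChrX-Cast. Every sample of iXist-ChrX-Dom was below every sample of iXist-ChrX-Cast, as for 44.7% of the 235 genes of both tables in either direction. Usp11 was the only one of the 4 genes called between the lines, where 33.2% of the 235 genes were called. Its log-odds differed by -0.93 (SE 0.20, limma adjusted p = 0.0120), and the adjusted p ran from 0.00103 to 0.0669 over 15 alternatives, of which 14 gave the call. Xi was below Xa by log2 differences of -3.67 in iXist-ChrX-Dom (SE 0.11, edgeR adjusted p = 1.25e-18) and -2.61 in iXist-ChrX-Cast (SE 0.11, edgeR adjusted p = 3.68e-11). The difference of mean ratios was -0.0834 when taken within replicates 1 and 2, but -0.0357 between replicates 3 and 4 of iXist-ChrX-Dom and replicate 3 of iXist-ChrX-Cast. Usp11 ranked 191 of 246 genes in iXist-ChrX-Dom and 170 of 399 in iXist-ChrX-Cast. Its values rested on 28 to 77 Xi fragments per sample. In iXist-ChrX-Dom its Dom share was of a size that also arose without a Dom copy, as given below with Huwe1.

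**Figure D3:**
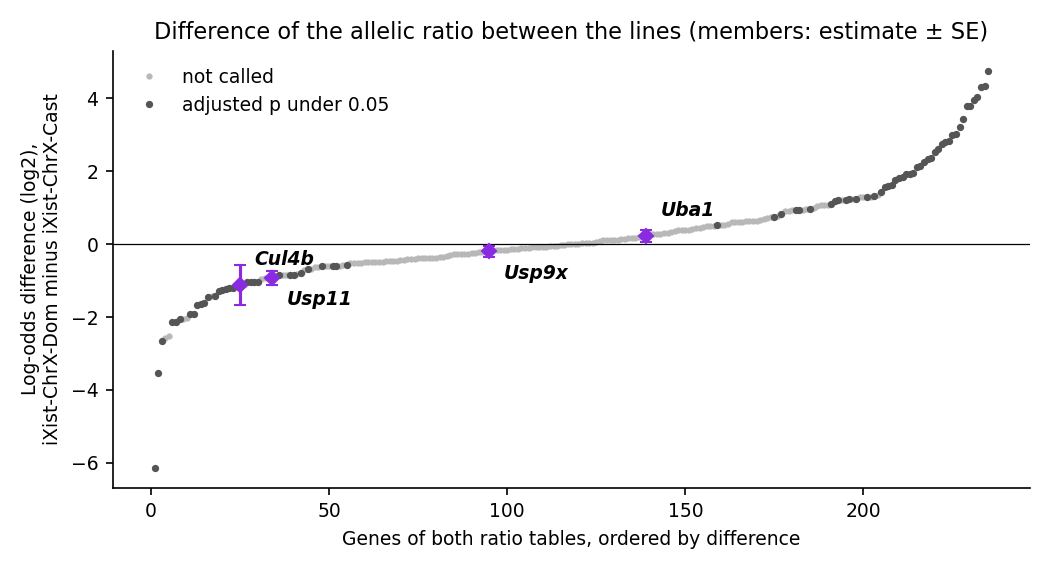
Difference of the log-odds of the allelic ratio between the lines (vertical axis, log2 scale, iXist-ChrX-Dom minus iXist-ChrX-Cast) for the 235 genes of both tables in order of size, with genes called by limma in dark grey and the 4 ubiquitin genes as diamonds with their SE. Usp11 (-0.93) is called, while Cul4b (-1.11), with an SE of 0.55, Usp9x (-0.20) and Uba1 (0.23) are not.

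Cul4b, which assembles ligases with Ddb1 and Rbx1, gave little allelic information for its level. Only 0.440% to 0.899% of its fragments were allelic, less than for 97.4% of the X-linked genes with at least 100 fragments in every sample, whose median was 38.3%. Its ratios of 0.0833, 0.0526, 0.0278 and 0.125 in iXist-ChrX-Dom thus rested on 36 to 96 allelic fragments per sample, and those of 0.190, 0.179 and 0.0735 in iXist-ChrX-Cast on 42 to 68. The interval of iXist-ChrX-Dom replicate 3, from 1 Xi fragment of 36, ran from 0.00492 to 0.142. The lines overlapped, and the log-odds difference of -1.11 (SE 0.55) was not called (limma adjusted p = 0.152). Within replicates 1 and 2 it was -1.54 (limma adjusted p = 0.0323), from 3 to 10 Xi fragments per sample. Xi was below Xa by log2 differences of -3.57 in iXist-ChrX-Dom (SE 0.27, edgeR adjusted p = 9.77e-11) and -2.61 in iXist-ChrX-Cast (SE 0.30, edgeR adjusted p = 2.73e-06).

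Huwe1 could be read in iXist-ChrX-Cast only, since both X chromosomes of iXist-ChrX-Dom are Cast on the telomeric side of Xist. Its ratios in iXist-ChrX-Cast were 0.247, 0.247 and 0.218, each from 9361 to 12416 allelic fragments, and Xi was below Xa by a log2 difference of -1.69 (SE 0.05, edgeR adjusted p = 8.51e-13). Replicate 3 was the lowest, as for Uba1, Usp9x, Usp11 and Cul4b in this line. With a mean of 0.237 ± 0.0168 Huwe1 ranked 64 of 399 genes. In iXist-ChrX-Dom 1.47%, 1.83%, 1.52% and 2.26% of its allelic fragments were assigned to Dom, where both copies are Cast. The median Dom share of 137 telomeric X genes was 2.17% to 3.26% in the same samples, so shares of this size are the background of allele assignment there.

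Ube2a, whose enzyme ubiquitinates histone H2B and the replication clamp with different ligases, was in neither ratio table. It had 27, 39, 34 and 26 Dom fragments in iXist-ChrX-Dom and 22, 27 and 36 in iXist-ChrX-Cast, and 0 Cast fragments in all 7 samples. Dom was Xi in iXist-ChrX-Dom but Xa in iXist-ChrX-Cast, so the assignment followed the parental genome and not the Xist allele. Summed over samples, 0 of 211 fragments allows a Cast share of up to 1.42%, for counting error only. Allelic fragments made up 4.06% to 5.21% of its total. Among 220 X-linked genes centromeric of Xist with at least 20 allelic fragments in every sample, 1 other gene, C330007P06Rik, was at least 95% Dom in all samples of both lines, and 0 were at least 95% Cast. The expression of Ube2a from Xi cannot be read from these counts, and its total level is the only value used here.

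Each parental allele was followed across the lines, since the Dom copy is Xi in iXist-ChrX-Dom and Xa in iXist-ChrX-Cast. The Cast copy of Usp9x gave 96.3 ± 20.5 CPM as Xi (n = 3) and 288 ± 35.4 CPM as Xa (n = 4), so that its Xi level was 33.5% of its Xa level. The Dom copy gave 65.8 ± 8.29 CPM as Xi (n = 4) and 360 ± 34.3 CPM as Xa (n = 3), or 18.2%. For Uba1 the shares were 39.9% for the Cast copy and 28.4% for the Dom copy. Both alleles of Usp11 had similar levels on Xa (20.3 ± 2.19 CPM for Cast and 19.7 ± 3.05 CPM for Dom), and 3.25 ± 0.955 CPM for Cast and 1.62 ± 0.192 CPM for Dom on Xi, or 16.0% and 8.21%. For Cul4b they were 17.5% and 7.91%. These shares compare levels across lines, so they move with a gene's total as well as with its allelic ratio. For Uba1, whose fitted total in iXist-ChrX-Dom was 84.7% of that in iXist-ChrX-Cast, Xi as a share of Xa within a line ran the other way, 36.4% where Dom was Xi and 30.9% where Cast was. For Usp9x, Usp11 and Cul4b the Cast copy had the larger share within lines too, at 26.4% against 22.8%, 16.4% against 7.88% and 16.4% against 8.41%. The differences between these shares were not tested. Line and Xi allele cannot be told apart.

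**Figure D4:**
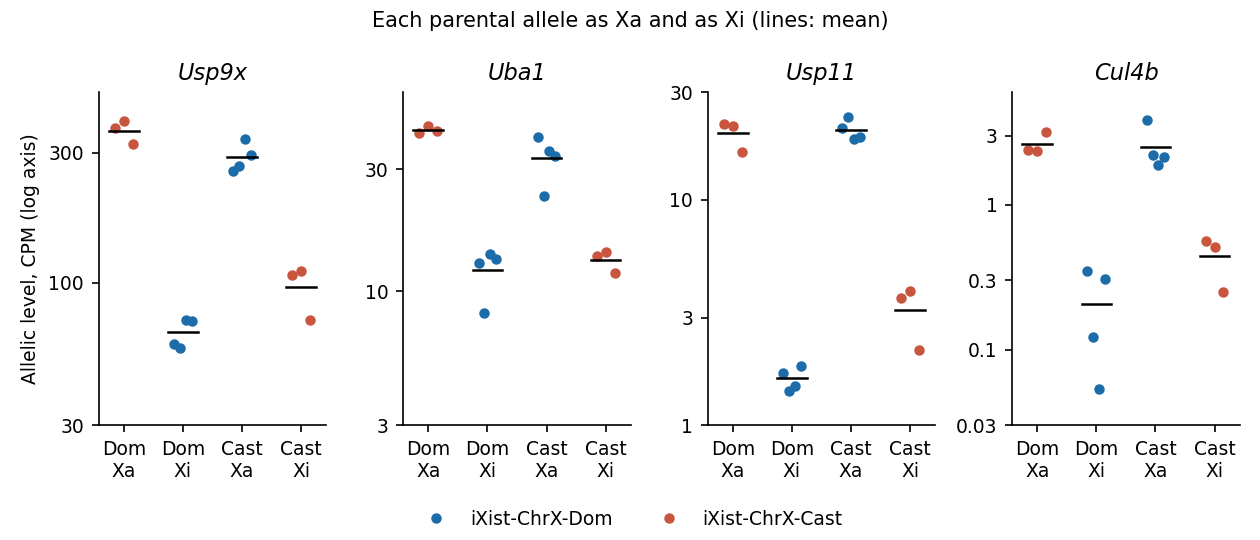
Allelic level (CPM, log axis, with a separate scale for each gene) of the Dom and the Cast copy of 4 genes as Xa and as Xi, by sample of iXist-ChrX-Dom (blue) and iXist-ChrX-Cast (red), with the mean as a line. The Xi level of each copy lies below its Xa level in every sample, and for Usp11 the Dom copy on Xi (1.42 to 1.84 CPM) lies below the Cast copy on Xi (2.15 to 3.92 CPM).

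The genes were then set side by side within samples, in 6 pairs of the 4 genes of both tables. This comparison was chosen after the values were seen, so it is given as a description, without p-values. Uba1 exceeded Usp11 by 0.152 ± 0.0530 (SD over 7 samples) in allelic ratio. Uba1 exceeded Usp9x by 0.0582 ± 0.0323 and Cul4b by 0.150 ± 0.0711, and Usp9x exceeded Usp11 by 0.0938 ± 0.0235 and Cul4b by 0.0915 ± 0.0437. Each of these 5 pairs had the same order in 7 of 7 samples. Cul4b minus Usp11 was 0.00229 ± 0.0369, above 0 in 4 of 7 samples. The gap between Uba1 and Usp11 had a mean of 0.193 ± 0.0176 over the samples of iXist-ChrX-Dom, beside 0.0972 ± 0.00998 over those of iXist-ChrX-Cast.

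Neighboring genes placed these values in their surroundings. Uba1 is flanked in the tables by Rbm10, an RNA-binding splicing regulator, and the cyclin-dependent kinase gene Cdk16, which lies between it and Usp11. In iXist-ChrX-Dom all samples of Rbm10 (0.154 to 0.206) and Cdk16 (0.184 to 0.217) were below Uba1 (0.244 to 0.283). In iXist-ChrX-Cast Rbm10 (0.258 to 0.288) was above Uba1 (0.219 to 0.249), and Cdk16 (0.202 to 0.238) overlapped it. Usp11 was below both of its neighbors in all samples of both lines: Cdk16, which starts 15.4 kb away, and the kinase gene Araf, which starts 145 kb away (0.141 to 0.217 and 0.190 to 0.214). Within 300 kb of Uba1 other genes had lower means than Usp11 (0.139) in iXist-ChrX-Cast: Timp1 (0.0371), Syn1 (0.0666) and Jade3 (0.0700). In iXist-ChrX-Dom the mean of Usp11 (0.0743) was the lowest, with Cfp (0.0892) next.

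**Figure D5:**
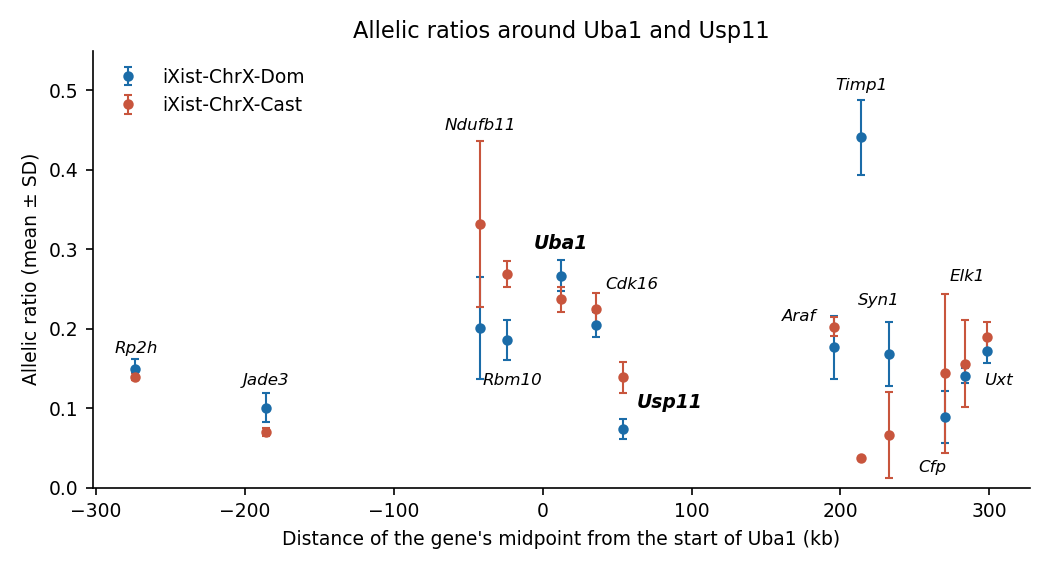
Mean allelic ratio ± SD of the genes of the ratio tables that start within 300 kb of the start of Uba1, by distance of the gene's midpoint from that start (kb), in iXist-ChrX-Dom (blue, n = 4) and iXist-ChrX-Cast (red, n = 3). Usp11 lies below its neighbors Cdk16 and Araf in both lines, while Uba1 lies above Rbm10 in iXist-ChrX-Dom and below it in iXist-ChrX-Cast. In iXist-ChrX-Cast Timp1, Syn1 and Jade3 lie below Usp11.

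Usp9x lay between neighbors with lower and higher ratios. The noncoding transcript 5730405O15Rik, which starts 29.5 kb away, had 0.0820 to 0.140 in iXist-ChrX-Dom and 0.118 to 0.191 in iXist-ChrX-Cast. Ddx3x, an RNA helicase gene known to escape X inactivation, starts 210 kb away and had 0.294 to 0.319 and 0.270 to 0.337, above Usp9x in every sample. Cul4b was below the lysosomal gene Lamp2 in all samples of iXist-ChrX-Dom (0.145 to 0.163) and overlapped it in iXist-ChrX-Cast (0.157 to 0.209). On its other side Mcts1 ranged from 0 to 0.158 in iXist-ChrX-Dom from a median of 16 allelic fragments, and the next gene of the iXist-ChrX-Cast table, Gria3, had 0.0833 to 0.176 from a median of 34. Huwe1 overlapped the histone demethylase gene Phf8 (0.221 to 0.266) and was above Hsd17b10 (0.0857 to 0.157, a median of 35 allelic fragments).

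The genes of most similar ratio were sought by the smallest maximum difference over the samples. Usp9x was nearest to Fmr1 and Naa10, which stayed within 0.0255 and 0.0268 of it in all 7 samples. Uba1 was nearest to Tfe3 (0.0374) and Bcor (0.0472), and Usp11 to Pola1 (0.0251) and Kif4 (0.0259), out of 235 genes. Cul4b was nearest to Usp11 (0.0471) and Ikbkg (0.0566), although in the reverse direction Cul4b was rank 9 for Usp11. Over the 3 samples of iXist-ChrX-Cast and 399 genes, Huwe1 was nearest to Uba1, with which it differed by at most 0.00425, and to Brcc3 (0.00868), a deubiquitinase subunit gene. Uba1 and Huwe1 lie on opposite sides of Xist.

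Other X-linked genes of the ubiquitin system were taken as a list of 27, of which 24 were tested in total counts. Klhl13, a substrate adaptor of Cul3 ligases, was the 1 gene called, where 8.12% of 542 X-linked genes were called. It was higher in iXist-ChrX-Dom by 1.79 on the log2 scale (SE 0.24, edgeR adjusted p = 0.00963), a call that was lost without iXist-ChrX-Cast replicate 1 (adjusted p = 0.0556) or replicate 2 (adjusted p = 0.0880). The median of the 24 genes was -0.11, beside -0.12 for all X-linked genes and -0.00 for all genes tested. Of 8 list genes in both ratio tables limma called 2 in opposite directions, where 33.2% of the 235 genes were called. The ratio of Klhl13 in iXist-ChrX-Dom, 0.0347 ± 0.00607, was below the 0.219 ± 0.0123 of iXist-ChrX-Cast (log-odds difference -2.67, SE 0.18, limma adjusted p = 5.53e-05). Maged1, which encodes a partner of RING ligases, had 0.186 ± 0.0364 and 0.0788 ± 0.0150 (1.32, SE 0.24, limma adjusted p = 0.00604). The median difference of the 8 genes was -0.24, beside 0.01 over the 235. Mean ratios of list genes ran from 0.0347 to 0.270 over 8 genes in iXist-ChrX-Dom and from 0.0667 to 0.307 over 14 in iXist-ChrX-Cast, ranges that hold all the means of Uba1, Usp9x, Usp11, Cul4b and Huwe1.

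Autosomal partners and paralogs of the 6 genes showed 2 calls among 26 tested of 27, where 2.92% of all 15186 genes tested were called. Uba6, the other ubiquitin-activating enzyme, had 311 ± 26.8 CPM in iXist-ChrX-Dom and 522 ± 92.1 CPM in iXist-ChrX-Cast (log2 fold change -0.75, SE 0.13, edgeR adjusted p = 0.0216). Cul4a, the paralog of Cul4b, had 107 ± 13.9 and 71.6 ± 8.62 CPM (0.58, SE 0.13, edgeR adjusted p = 0.0459). Uba6 lies on chromosome 5 and Cul4a on chromosome 8. Genes of chromosome 5 had a median of 46.0 ± 0.187% Cast fragments (iXist-ChrX-Dom) against 63.6 ± 0.597% (iXist-ChrX-Cast), and the median log2 fold change of its 964 tested genes was -0.40. Chromosome 8 had 63.7 ± 0.347%, 46.8 ± 2.74% and 0.35 (806 genes). The part of these chromosome-wide differences in the calls was not tested. The call of Uba6 was lost without iXist-ChrX-Dom replicate 2, 3 or 4 or iXist-ChrX-Cast replicate 1 or 2 (edgeR adjusted p = 0.0568 to 0.156), and that of Cul4a without any library but iXist-ChrX-Cast replicate 3 (adjusted p = 0.0658 to 0.235). Ube2b, the paralog of Ube2a, had 107 ± 11.1 and 94.1 ± 5.26 CPM (0.18, SE 0.11, edgeR adjusted p = 0.419). The median of the 26 genes was 0.03. Ddb1 and Rbx1, partners of Cul4b, and Rnf20, Rnf40 and Rad18, ligases that work with Ube2a, were tested and not called.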

How the data were processed

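ChrRNA-seq libraries of undifferentiated female mESCs were grouped by the line given in the labels, 4 of iXist-ChrX-Dom and 3 of iXist-ChrX-Cast. Per the labels and methods, the authors removed rRNA reads with bowtie2 2.3.2, aligned the rest to N-masked mm10 with STAR 2.4.2a, assigned fragments to Cast or Dom/129S with SNPsplit and counted them strand-aware over whole RefSeq transcripts with featureCounts 1.5.2. The deposited count files hold raw fragment counts per gene for all, Cast-assigned and Dom-assigned fragments. The deposited ratio tables hold the Xi fraction of allelic fragments, after the authors had filtered genes on allelic coverage and uninduced ratio. All 984 and 1197 table values equaled the ratio of the allelic counts within 1e-06. Gene starts in the files were 1 below the RefSeq start for 12335 of 21161 genes matched by symbol, so 1 was added to all printed starts.

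Totals were tested with edgeR 4.0.16 (R 4.3.3, filterByExpr, TMM, quasi-likelihood F test), ratios of the 235 genes in both tables with limma 3.58.1 on log2((ratio + 0.01)/(1 - ratio + 0.01)), and Xi against Xa within a line with edgeR, the sample as a block and both alleles given the sample's library size. All tests were two-sided with Benjamini-Hochberg adjustment over all genes tested and a threshold of 0.05. Intervals are Wilson 95% intervals (scipy 1.17.1), the limit of a count of 0 is 3 counts, and both cover counting error only, since fragments carried no molecular identifiers. Python 3.11.15, numpy 2.4.6, pandas 2.3.3 and matplotlib 3.10.9 were used. The fits across genes were tested on simulated counts. Alternatives were DESeq2 1.42.0, other scalings, filters and log-odds offsets, edgeR on allelic counts, a correction for allele bias, the sample set (replicates 1 and 2 against 3 and 4, whose files are named by different schemes), a replicate block and leaving out each library.

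The 6 genes, the lists and the tests were chosen with earlier results of these data known. Genes named beside the 6 are their nearest neighbors and 2 most similar genes in the ratio tables, their autosomal or Y-linked counterparts, and list genes past the threshold. Tbx3, C330007P06Rik and the partners named without a call were named after their values were seen. The list genes Dcaf1 and Ubl4a are Vprbp and Ubl4 in the files. Replicate numbers paired the samples in total counts by the rule applied here, with correlations of same-numbered deviations of 0.329, 0.275 and 0.466 across genes, but not in the log-odds (-0.123, -0.0956 and -0.111). The study calls the iXist-ChrX-Dom samples replicate experiments. For neither line do the sources used here say whether replicates were separate cultures, so p-values measure the spread between these samples, which may be technical. No pair of replicates agreed within sampling noise (chi-square per gene 6.51 to 39.9). Sequences are from RefSeq (GRCm38.p6). Exons were taken from GENCODE M21.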

Additional observations from a re-analysis of the deposited data

Results flagged for a closer look

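Of the 4 genes in both tables Usp11 was the 1 whose Xi share limma called between the lines without a replicate block and over all samples. The log-odds of its ratio was lower in iXist-ChrX-Dom by a log2 difference of -0.93 (limma adjusted p = 0.0120), with all 4 samples of that line below all 3 of iXist-ChrX-Cast. Calls were made for 33.2% of the 235 genes, and 44.7% had lines that did not overlap, so 1 of 4 genes is not above this background. With the replicate block limma did not call Usp11 (adjusted p = 0.0669) and called Cul4b (adjusted p = 0.0280). Its total level (log2 fold change -0.08, edgeR adjusted p = 0.821) gave no call. Of 10 sets of 4 iXist-ChrX-Dom samples (total levels of the 6 genes and ratios of 4), 0 held a sample set apart from the others by Dixon's test, which flags about 1 in 20 sets by chance.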

How the results depend on the processing

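Of 202 values of single genes under an alternative, 194 kept their direction and their side of the threshold, among them all 58 of Xi against Xa. In total counts 0 of the 6 genes were called, but 1 (Usp9x) within replicates 1 and 2, and 0 to 1 when leaving out each library, with the 1 without iXist-ChrX-Cast replicate 3. Leaving out each library, Ube2a ran from -0.03 (without iXist-ChrX-Dom replicate 2) to 0.15, and Usp11 from -0.22 to 0.01 (without iXist-ChrX-Cast replicate 2). Other uncalled differences moved too: in totals Cul4b from -0.16 (without iXist-ChrX-Cast replicate 3) to -0.02 (without iXist-ChrX-Dom replicate 4), Huwe1 from -0.27 to -0.11 (without iXist-ChrX-Cast replicates 3 and 1) and Uba1 from -0.32 to -0.15 (without iXist-ChrX-Dom replicates 1 and 2), and in ratios Usp9x from -0.31 to -0.13 (without iXist-ChrX-Cast replicates 3 and 1). In the ratios 1 of 4 genes was called, and 2 within replicates 1 and 2 (Usp11 and Cul4b). The difference of Uba1 turned to -0.05 with the correction for allele bias. The causes were not tested.

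With the replicate block 0 of 6 genes were called in total counts (Usp9x -0.34, edgeR adjusted p = 0.173), and the block changed no other call of these genes there. In the ratios, where the numbers did not pair the samples, the block gave 1 call, Cul4b (-1.43, limma adjusted p = 0.0280), and Usp11 had -1.02 (adjusted p = 0.0669). Own-number correlations were the best for 1 of 3 numbers in totals and 0 of 3 in log-odds. Over all genes the total-count calls numbered 443, from 18 (without iXist-ChrX-Cast replicate 2) to 2398 (sample set as a covariate), with 1094 by DESeq2 and 1794 with the block. Precision is limited by 4 against 3 samples and, for Cul4b and Ube2a, by few allelic fragments.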

Other observations

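The Y-linked counterparts of 2 of the genes were also counted in these female cells. Uba1y had 0 fragments in all 7 samples. Usp9y had 17 to 25 fragments per sample in iXist-ChrX-Dom and 9 to 20 in iXist-ChrX-Cast, or 0.0418% to 0.109% of the Usp9x count of the same sample.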
